A study of Mus musculus with 12 samples.

Results

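Surface receptor genes whose proteins sort hematopoietic stem cells (HSCs) from multipotent progenitors (MPPs) were followed in RNA-seq libraries of *Ythdc1*Δ/Δ and *Ythdc1*+/+ HSCs. The 9 genes were *Kit*, *Ly6a*, *Slamf1*, *Cd48*, *Flt3*, *Cd34*, *Procr*, *Tek* and *Cd27*, found by gene identifier and symbol, so that 9 of 9 were present among the 55335 genes in the count table. *Ythdc1*Δ/Δ mice carried floxed *Ythdc1* alleles and the Mx1-Cre transgene, a recombinase under an interferon-inducible promoter. *Ythdc1*+/+ mice carried Mx1-Cre and unfloxed alleles. Mice of both genotypes received 5 injections of 300 μg pIpC, an RNA mimic that induces interferon, and donors were 8 weeks old. The labels give strain C57B6, bone marrow and HSC for all libraries, and Mx1-Cre also acts in cells other than HSCs. There were 12 libraries, 6 per genotype, under 6 sample numbers with 2 libraries each, namely KO176, KO177 and KO209 among *Ythdc1*Δ/Δ libraries, and WT178, WT180 and WT207 among *Ythdc1*+/+ libraries. Both libraries of a number were added up, so that each genotype had 3 samples. Nothing in the labels ties a number to a mouse, so the spread behind each p-value is that between these samples and could be technical.

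An HSC gate works by exclusion as much as by selection. Cells without lineage antigens that carry both c-Kit (the stem cell factor receptor, from *Kit*) and Sca-1 (a GPI-anchored protein, from *Ly6a*) form the LSK fraction, in which the stem cells and multipotent progenitors of the marrow are found. Within it, the study's long-term HSC gate required CD150 (from *Slamf1*) and no CD48 or Flk2 (from *Cd48* and *Flt3*), short-term HSCs lacked all of these, MPP2 and MPP3 cells are defined by CD48, and MPP4 cells by Flk2. *Cd34*, *Procr*, *Tek* and *Cd27* encode further markers that divide the LSK fraction elsewhere in the field, and CD34 was among the study's antibodies. Marrow was first enriched with beads against CD117, which is c-Kit. The gate reads protein on the cell surface and the libraries read mRNA, and which of the LSK gates supplied these libraries is not given in the sources used here.

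Library totals in genes were 22481622 to 24118972 counts in *Ythdc1*Δ/Δ libraries, against 20809936 to 24563170 counts in *Ythdc1*+/+ libraries. *Ythdc1* itself was at 65.3 ± 7.37 CPM in *Ythdc1*Δ/Δ samples, against 80.4 ± 10.7 CPM in *Ythdc1*+/+ samples (CPM, a gene's share of the scaled counts of a sample on a common total; SD, n = 3 each). Its counts cover all exons of the gene and reads of single exons were not examined, so they do not check the genotype. In edgeR's quasi-likelihood test 25 of 18234 tested genes were called at an adjusted p under 0.05, 16 of them higher and 9 lower in *Ythdc1*Δ/Δ HSCs.

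Set against the study's long-term HSC gate, mRNAs of proteins that this gate excludes were abundant in these libraries, whose own gate is not given. Per kilobase of exon, transcripts of both proteins excluded from the HSC gates, *Cd48* and *Flt3*, stood far above the transcript of CD150, by which long-term HSCs are selected, in each sample of both genotypes. *Cd48*, which encodes a GPI-anchored ligand of CD244, averaged 306 ± 24.7 CPM per kb in *Ythdc1*Δ/Δ samples, against 250 ± 41.5 CPM per kb in *Ythdc1*+/+ samples (SD, n = 3 each), above 99.0% of all tested genes by its mean level. *Flt3*, the receptor for FLT3 ligand on lymphoid-primed progenitors, averaged 69.4 ± 5.69 CPM per kb in *Ythdc1*Δ/Δ samples, against 58.8 ± 5.48 CPM per kb in *Ythdc1*+/+ samples. *Slamf1*, a receptor of the SLAM family, averaged 1.20 ± 0.215 CPM per kb in *Ythdc1*Δ/Δ samples, against 1.51 ± 0.230 CPM per kb in *Ythdc1*+/+ samples, above 39.3% of tested genes. The low *Slamf1* level rested on 293 to 455 counts per sample, so the gene was detected in every sample.

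**Figure D1:**
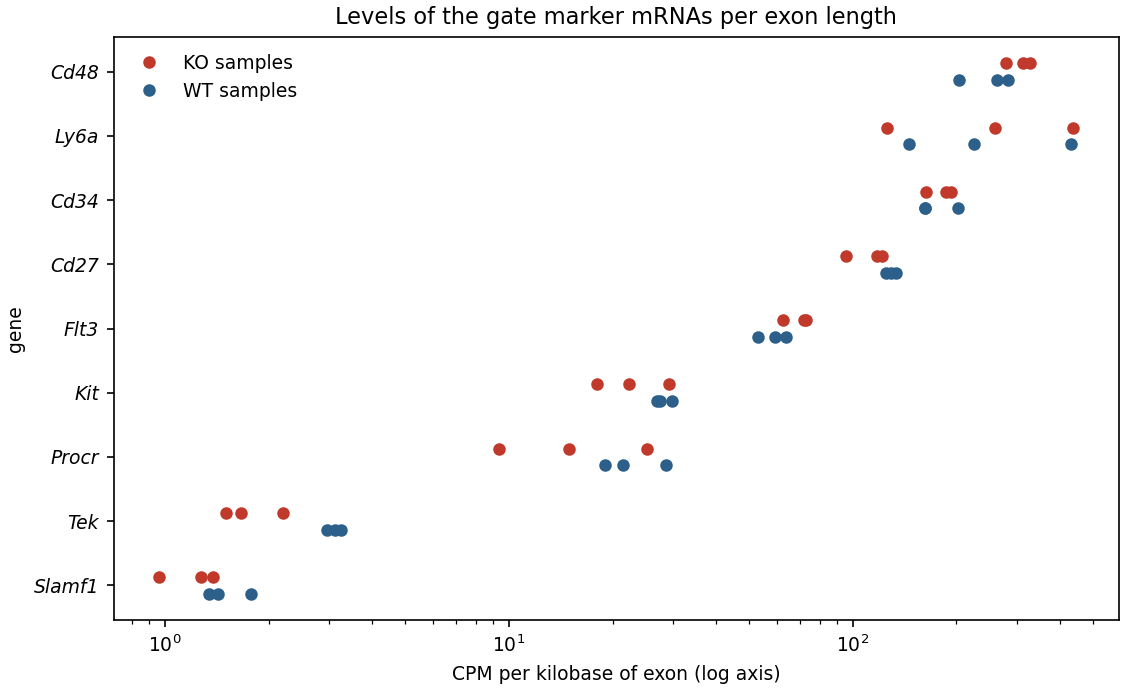
Level of each gate marker mRNA in CPM per kilobase of exon (horizontal log axis), with genes by their mean over all 6 samples (vertical axis) and 1 point per sample, *Ythdc1*Δ/Δ (KO) above *Ythdc1*+/+ (WT). *Slamf1* lies lowest, between 0.962 and 1.77, and *Cd48*, between 203 and 327, has the highest mean over all 6 samples, with *Ly6a* above it in KO176 and WT180.

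By the mean over all 6 samples the remaining markers lay between *Cd48* and *Slamf1*, although *Ly6a* was above *Cd48* in KO176 and WT180 and in the *Ythdc1*+/+ mean. *Ly6a* averaged 274 ± 156 CPM per kb in *Ythdc1*Δ/Δ samples, against 267 ± 148 CPM per kb in *Ythdc1*+/+ samples (SD, n = 3 each). *Cd34*, which encodes a sialomucin of stem cells, progenitors and endothelium, averaged 181 ± 15.9 CPM per kb in *Ythdc1*Δ/Δ samples, against 175 ± 22.7 CPM per kb in *Ythdc1*+/+ samples. *Cd27*, a TNF receptor family member whose ligand is CD70, averaged 111 ± 13.9 CPM per kb in *Ythdc1*Δ/Δ samples, against 129 ± 4.38 CPM per kb in *Ythdc1*+/+ samples. All 3 were above at least 96.8% of tested genes. *Kit*, the first gate of the sort, was lower than any of them, at 23.2 ± 5.57 CPM per kb in *Ythdc1*Δ/Δ samples, against 28.1 ± 1.54 CPM per kb in *Ythdc1*+/+ samples. *Procr*, the endothelial protein C receptor EPCR, averaged 16.5 ± 8.03 CPM per kb in *Ythdc1*Δ/Δ samples, against 23.0 ± 5.01 CPM per kb in *Ythdc1*+/+ samples. *Tek*, which encodes TIE2, the angiopoietin receptor, averaged 1.79 ± 0.366 CPM per kb in *Ythdc1*Δ/Δ samples, against 3.11 ± 0.151 CPM per kb in *Ythdc1*+/+ samples, above 48.1% of tested genes. Neighbours in this order whose ranges over the 6 samples overlapped were *Cd48* and *Ly6a*, *Ly6a* and *Cd34*, *Kit* and *Procr*, and *Tek* and *Slamf1*. Neighbours whose ranges were separate were *Cd34* above *Cd27*, *Cd27* above *Flt3*, *Flt3* above *Kit*, and *Procr* above *Tek*. Exon length here is the union over all annotated transcripts, and a gene whose cells use a short isoform is understated.

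Ratios within a sample need no scaling between libraries and compare a positive with a negative marker of the gate directly. Per kilobase, *Flt3* exceeded *Slamf1* by 49.4-fold, 53.2-fold and 75.0-fold in KO176, KO177 and KO209, and by 29.9-fold, 47.8-fold and 41.6-fold in WT178, WT180 and WT207. *Cd48* exceeded *Slamf1* by 219-fold, 238-fold and 324-fold in the same *Ythdc1*Δ/Δ samples, and by 148-fold, 212-fold and 142-fold in the *Ythdc1*+/+ samples. In both ratios, which share *Slamf1*, each *Ythdc1*Δ/Δ sample lay beyond each *Ythdc1*+/+ sample, on the side of less *Slamf1* relative to the other gene. The gap between KO176 and WT180 was small. How many other gene pairs separate in this way was not computed, and 16.3% of single tested genes did not overlap. On the log2 scale *Slamf1* over *Cd48* was -8.00 ± 0.298 in *Ythdc1*Δ/Δ and -7.36 ± 0.316 in *Ythdc1*+/+ samples, and *Slamf1* over *Flt3* was -5.86 ± 0.322 in *Ythdc1*Δ/Δ and -5.29 ± 0.348 in *Ythdc1*+/+ samples (SD, n = 3 each). *Cd34* over *Flt3* was 1.38 ± 0.197 in *Ythdc1*Δ/Δ and 1.57 ± 0.310 in *Ythdc1*+/+ samples, with overlap. *Ly6a* over *Kit*, the ratio of the 2 markers that define the LSK fraction, was 3.41 ± 1.25 in *Ythdc1*Δ/Δ and 3.11 ± 0.862 in *Ythdc1*+/+ samples, and it spread more within a genotype than between them. These ratios are descriptions without a test.

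Between the genotypes, no gate marker passed the test across all genes. All 9 were expressed well enough to be tested, and 0 of 9 were called by edgeR, where 0.137% of all tested genes were. DESeq2 called 1 of 9, *Tek*, where it called 1.19% of tested genes. At an unadjusted p under 0.05, 1 of 9 was lower (*Tek*) and 0 were higher, where 9.48% of tested genes had such a p. Samples of the genotypes did not overlap for 2 markers, *Tek* and *Cd27*, against 16.3% of tested genes, that is 8.59% lower and 7.75% higher in *Ythdc1*Δ/Δ. With upper quartile scaling this held for *Tek* alone. The log2 fold change (*Ythdc1*Δ/Δ minus *Ythdc1*+/+) was above 0 for 4 markers and below 0 for 5, with a median of -0.21, and over all tested genes the median was -0.0062. Each fold change is given with its standard error (SE). In bulk RNA, fewer cells of a type and less RNA per cell cannot be told apart.

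*Tek* was the marker with the clearest difference. It was at 7.83, 7.08 and 10.4 CPM in KO176, KO177 and KO209, and at 14.7, 15.3 and 13.9 CPM in WT178, WT180 and WT207. The 12 single libraries did not overlap either, with 6.58 to 11.2 CPM in *Ythdc1*Δ/Δ libraries, against 12.5 to 16.7 CPM in *Ythdc1*+/+ libraries, and among the 9 markers this held for *Tek* alone. Libraries of the same number are not independent, so this adds no replicates. The share of all tested genes with such separate libraries was not computed. The log2 fold change was -0.79 (SE 0.17, unadjusted p = 0.000809, adjusted p = 0.179 from edgeR), which ranked *Tek* at place 82 of 18234 by p. *Tek* was called without sample KO209 (log2 fold change -0.97, adjusted p = 0.0313 from edgeR) and by DESeq2 (-0.79, adjusted p = 0.00449). The counts per sample were 322 to 738. *Tie1*, the sister receptor of TIE2, was at 57.5 ± 15.7 CPM in *Ythdc1*Δ/Δ samples, against 79.6 ± 13.8 CPM in *Ythdc1*+/+ samples (SD, n = 3 each; log2 fold change -0.47, SE 0.20, adjusted p = 0.504 from edgeR). *Angpt1*, the angiopoietin that activates TIE2, was at 134 ± 44.0 CPM in *Ythdc1*Δ/Δ samples, against 143 ± 14.1 CPM in *Ythdc1*+/+ samples, with overlap. *Angpt2*, another TIE2 ligand, was at 0.707 ± 0.0350 CPM in *Ythdc1*Δ/Δ samples, against 0.390 ± 0.171 CPM in *Ythdc1*+/+ samples, without overlap (log2 fold change 0.84, SE 0.34, adjusted p = 0.473 from edgeR).

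**Figure D2:**
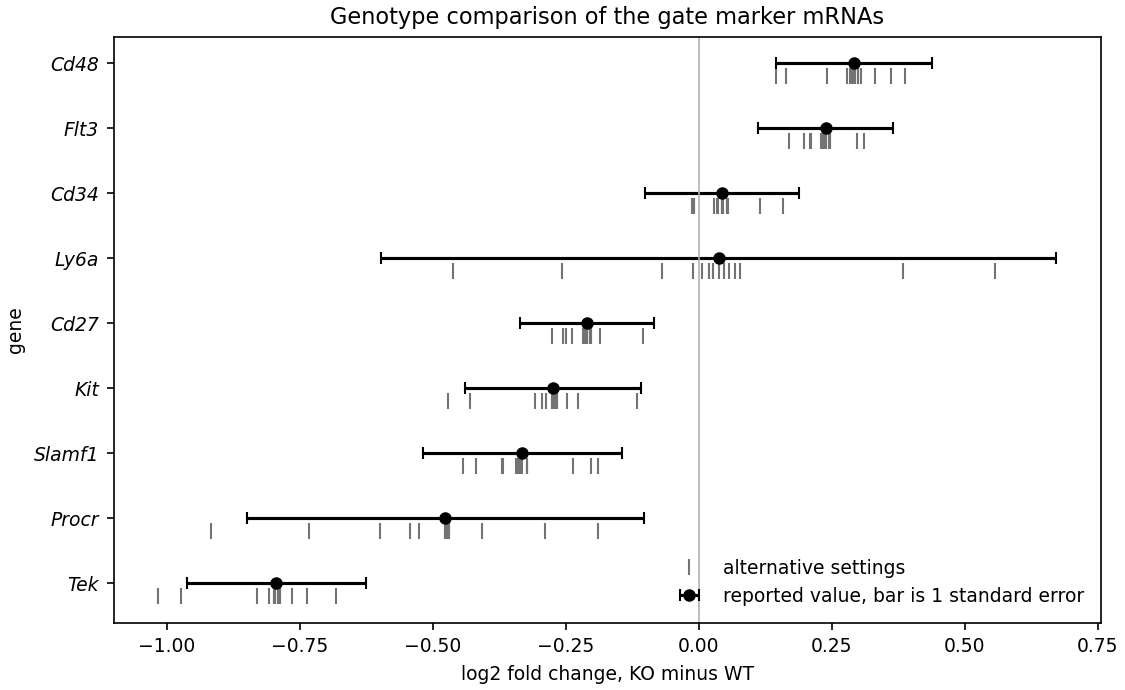
Log2 fold change of each gate marker, *Ythdc1*Δ/Δ (KO) minus *Ythdc1*+/+ (WT), on the horizontal axis, with genes on the vertical axis. Black points with bars are the edgeR values with 1 standard error and grey ticks are the 16 alternative settings, all below 0 for *Tek* (-1.02 to -0.68) and on both sides of 0 for *Ly6a* (-0.46 to 0.56) and *Cd34* (-0.014 to 0.16).

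*Cd27* was at 222, 273 and 283 CPM in KO176, KO177 and KO209, and at 300.2 ± 10.2 CPM in *Ythdc1*+/+ samples (SD, n = 3), whose values were 299.8, 290 and 311. No *Ythdc1*Δ/Δ sample reached the lowest *Ythdc1*+/+ sample, but KO209 came close and single libraries overlapped. The log2 fold change was -0.21 (SE 0.13, adjusted p = 0.635 from edgeR). Of its exon bases 5.54% also lie in *Mir8113*, which reads without strand cannot separate. *Traf5*, an adaptor of CD27, was at 9.77 ± 0.933 CPM in *Ythdc1*Δ/Δ samples, against 12.4 ± 0.974 CPM in *Ythdc1*+/+ samples (log2 fold change -0.35, SE 0.15, adjusted p = 0.491 from edgeR).

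Of the 3 markers that define the long-term gate within the LSK fraction, the mean of *Slamf1* was lower and the means of *Cd48* and *Flt3* were higher in *Ythdc1*Δ/Δ samples, none past the test. *Slamf1* was at 7.83, 8.46 and 5.92 CPM in *Ythdc1*Δ/Δ samples KO176, KO177 and KO209, and at 10.9, 8.24 and 8.80 CPM in *Ythdc1*+/+ samples WT178, WT180 and WT207. KO177 was above WT180, so the genotypes overlapped by that pair, and the log2 fold change was -0.33 (SE 0.19, adjusted p = 0.618 from edgeR). *Cd48* was at 331, 389 and 370 CPM in the *Ythdc1*Δ/Δ samples, and at 312, 337 and 242 CPM in the *Ythdc1*+/+ samples. KO176 was below WT180, and the log2 fold change was 0.29 (SE 0.15, adjusted p = 0.570 from edgeR). *Flt3* was at 388, 451 and 446 CPM in the *Ythdc1*Δ/Δ samples, and at 328, 395 and 367 CPM in the *Ythdc1*+/+ samples. Again KO176 was below WT180 and no other pair crossed, and the log2 fold change was 0.24 (SE 0.13, adjusted p = 0.594 from edgeR). *Slamf1* and *Cd48* are neighbours, at chr1:171767127-171801184 and chr1:171682009-171705258 of mm10, both on the plus strand and 61868 bases apart within the SLAM gene cluster, and their exons share no base.

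**Figure D3:**
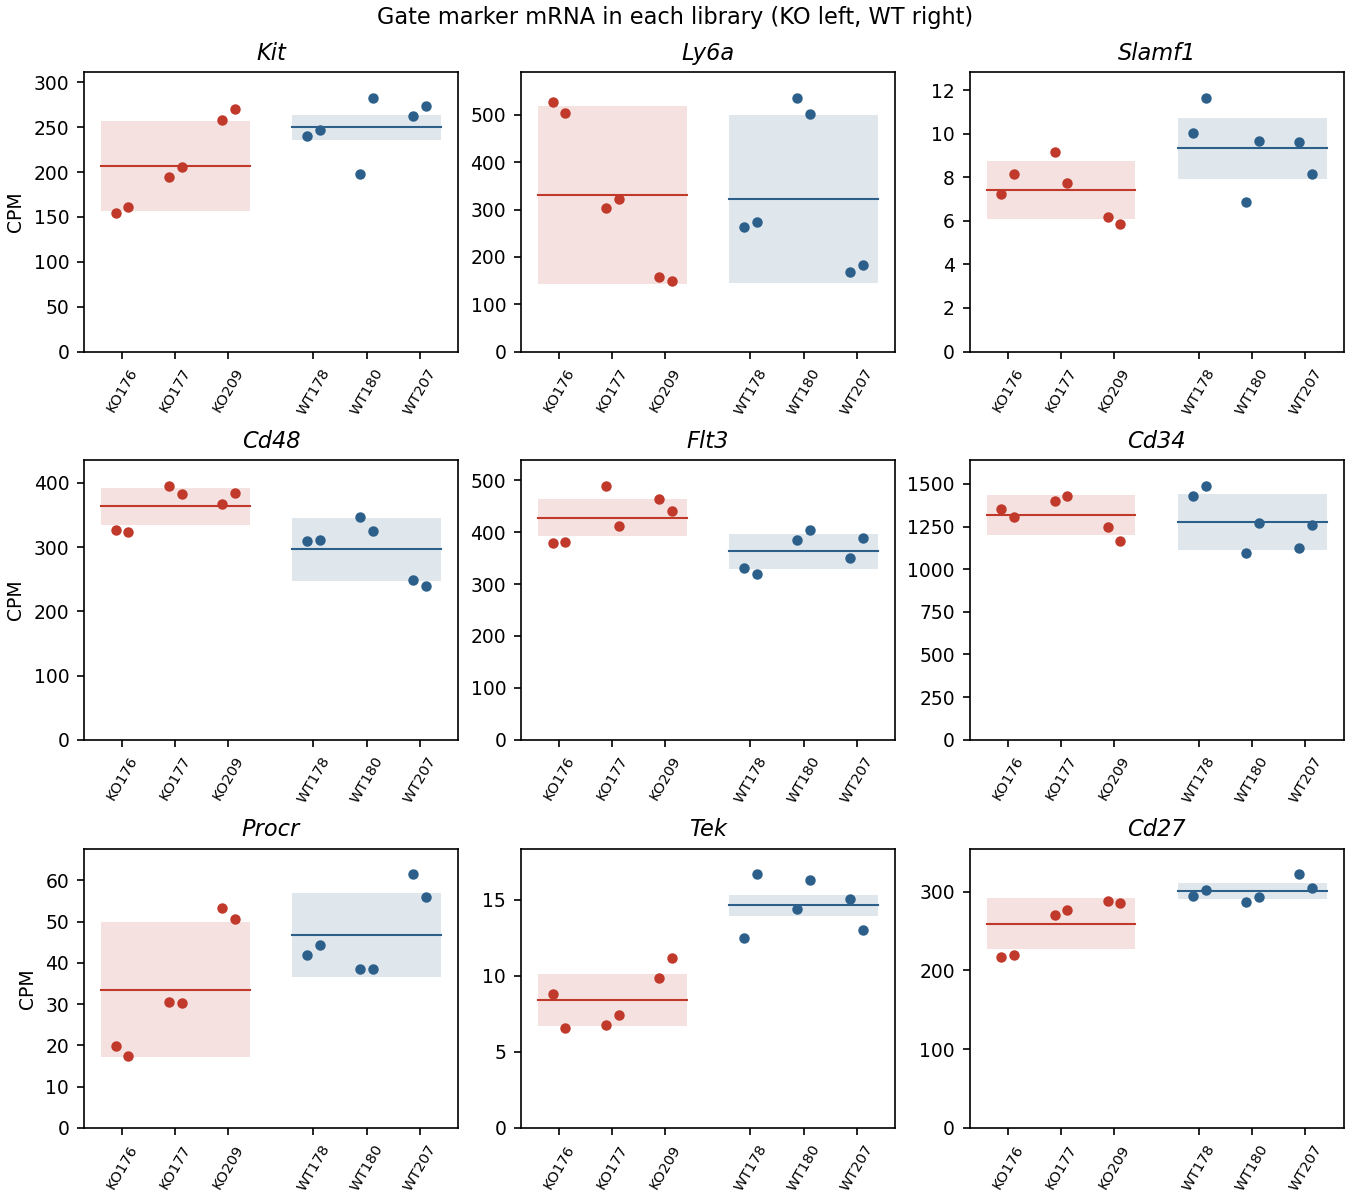
CPM (vertical axes from 0) of each gate marker in the 12 libraries, with *Ythdc1*Δ/Δ (KO, red) left of *Ythdc1*+/+ (WT, blue) and the 2 libraries of a sample number side by side. Lines are means of the 3 summed samples and bands are 1 SD, and *Tek* is the panel in which red and blue points share no level.

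*Cd48* and *Flt3* are also expressed by lymphoid and myeloid progenitors, whose markers were read beside them. Of 8 genes of lymphoid-primed progenitors, 7 had a log2 fold change above 0 with a median of 0.58, where 48.9% of tested genes were above 0. Their summed level was 2151 to 3501 CPM in *Ythdc1*Δ/Δ samples, against 1208 to 1388 CPM in *Ythdc1*+/+ samples. *Dntt*, the terminal transferase of early lymphoid cells, was at 317 ± 38.0 CPM in *Ythdc1*Δ/Δ samples, against 204 ± 28.7 CPM in *Ythdc1*+/+ samples (log2 fold change 0.63, SE 0.14, adjusted p = 0.194 from edgeR). *Ighm*, the immunoglobulin mu chain, was at 1874 ± 785 CPM in *Ythdc1*Δ/Δ samples, against 667 ± 80.9 CPM in *Ythdc1*+/+ samples (log2 fold change 1.49, SE 0.27, adjusted p = 0.120 from edgeR). This 1 gene made up most of the lymphoid-primed sum in *Ythdc1*Δ/Δ samples, so the difference in that sum was mainly one of *Ighm*. By sample *Ighm* was at 1313 to 2771 CPM in *Ythdc1*Δ/Δ, against 581 to 741 CPM in *Ythdc1*+/+. Of 10 B cell markers 9 were above 0 with a median of 0.50. *Cd79b*, the exception, made up most of their sum, at 80.8 to 110.0 CPM in *Ythdc1*Δ/Δ samples, against 92.7 to 108 CPM in *Ythdc1*+/+ samples. The sum of all 10 was 114 to 154 CPM in *Ythdc1*Δ/Δ samples, against 120 to 131 CPM in *Ythdc1*+/+ samples, with overlap. Leaving out *Cd79b*, after its value was seen, gave 33.2 to 53.1 CPM in *Ythdc1*Δ/Δ samples, against 23.0 to 27.5 CPM in *Ythdc1*+/+ samples. That smaller sum did not overlap, but the genes left in it all had a log2 fold change above 0, so the choice favoured separation. *Cd79a*, a signalling chain of the B cell receptor, was at 14.7 ± 2.18 CPM in *Ythdc1*Δ/Δ samples, against 7.36 ± 0.637 CPM in *Ythdc1*+/+ samples (log2 fold change 0.996, SE 0.16, adjusted p = 0.0622 from edgeR). *Vpreb3*, a gene of B cell precursors, was at 4.63 ± 1.45 CPM in *Ythdc1*Δ/Δ samples, against 2.29 ± 0.276 CPM in *Ythdc1*+/+ samples, and *Ebf1*, a B-lineage transcription factor, was at 2.25 ± 0.238 CPM in *Ythdc1*Δ/Δ samples, against 1.27 ± 0.194 CPM in *Ythdc1*+/+ samples. None of these 3 genes overlapped between the genotypes, where 16.3% of all tested genes did not overlap. They were named for the smallest p in their list, which favours separation, and the rest of the B cell list overlapped. *Pax5*, the B-lineage commitment factor, was at 0.257 CPM in *Ythdc1*Δ/Δ samples, against 0.217 CPM in *Ythdc1*+/+ samples. Of 10 granulocyte markers 10 were above 0 with a median of 0.41. Their sum was 22046 CPM in KO176, and it was 12013 to 13527 CPM in the other *Ythdc1*Δ/Δ samples and 10219 to 13112 CPM in *Ythdc1*+/+ samples. Much of the KO176 sum was *Mpo*, the myeloperoxidase gene, at 10914 CPM. *Mpo* was at 5183 CPM in KO177, 2222 CPM in KO209 and 2064 to 5388 CPM in *Ythdc1*+/+ samples. Not all of the list was highest in KO176, as *Ngp* and *Fcnb* were higher in KO209. No gene of these 3 lists was called by edgeR. At an unadjusted p under 0.05, 3 of 8, 5 of 10 and 2 of 10 genes of the lymphoid-primed, B cell and granulocyte lists were higher. Of all tested genes 9.48% had such a p in either direction. DESeq2 called 2, 2 and 0 genes of these lists higher, where it called 1.19% of tested genes. The part of these cells in the *Cd48* and *Flt3* values was not tested.

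*Kit* and *Procr* were lower in KO176 and KO177 and not in KO209. *Kit* was at 161, 199 and 260 CPM in KO176, KO177 and KO209, and at 245, 239 and 265 CPM in WT178, WT180 and WT207. Its log2 fold change was -0.27 (SE 0.17, adjusted p = 0.641 from edgeR). *Procr* was at 19.0, 30.4 and 51.2 CPM in KO176, KO177 and KO209, and at 43.4, 38.6 and 58.2 CPM in WT178, WT180 and WT207. Its log2 fold change was -0.48 (SE 0.37, adjusted p = 0.733 from edgeR). Without KO209 the log2 fold change was -0.47 for *Kit* (unadjusted p = 0.00307, adjusted p = 0.128 from edgeR) and -0.92 for *Procr* (unadjusted p = 0.00788, adjusted p = 0.175 from edgeR). Without KO176 it was -0.12 for *Kit* and -0.19 for *Procr*, and without WT207 it was -0.29 for *Procr*. The sample numbers fall in a low range, which holds KO176, KO177, WT178 and WT180, and a high one, which holds KO209 and WT207, and the labels give no meaning to them. Within the low range the log2 fold change was -0.43 for *Kit* and -0.73 for *Procr*, and between KO209 and WT207, 1 sample against 1, the log2 ratio was -0.03 for *Kit* and -0.18 for *Procr*. For *Tek* the same values were -1.02 and -0.42. For *Cd48* they were 0.14 and 0.62 and for *Slamf1* -0.24 and -0.57, so these 2 differed more between the high-numbered samples. *Flt3* was alike in both ranges, at 0.21 and 0.28.

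*Cd34* was at 1356, 1410 and 1188 CPM in KO176, KO177 and KO209, and at 1469, 1184 and 1182 CPM in WT178, WT180 and WT207, the most counted of the 9 genes. The genotypes overlapped throughout (log2 fold change 0.04, SE 0.14, adjusted p = 0.945 from edgeR), and the highest sample exceeded the lowest 1.24-fold.

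*Ly6a* varied most between samples, and not by genotype. It was at 526, 313 and 152 CPM in KO176, KO177 and KO209, and at 271, 519 and 175 CPM in WT178, WT180 and WT207. The highest sample exceeded the lowest 3.46-fold, while the 2 libraries of 1 number differed by at most 1.09-fold. The log2 fold change was 0.04 (SE 0.63, adjusted p = 0.991 from edgeR), and it turned to -0.46 without KO176, -0.07 without WT178 and -0.26 without WT207. Sca-1 is induced by interferon, and pIpC, which all mice received, induces interferon. The summed level of 12 interferon-stimulated genes was 2019, 1094 and 371 CPM in KO176, KO177 and KO209, and 921, 1955 and 405 CPM in WT178, WT180 and WT207, which is the sample order of *Ly6a* within each genotype. All 12 of these genes had that same order, and the share of all tested genes with it was not computed. Of the 12, 0 were called by edgeR between the genotypes, with none at an unadjusted p under 0.05 and a median log2 fold change of 0.04. DESeq2 called 0 of them as well. The part of interferon in the *Ly6a* values was not tested. Other genes of the Ly6 family gave 7 of 7 tested above 0 with a median of 0.38, 1 at an unadjusted p under 0.05 and 0 called by either tool, and read pairs that fit several family members were not counted. Among these genes, *Ly6g*, *Ly6c1* and *Ly6c2* are also in the list of lineage and progenitor antigens given below, so the lists are not independent.

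*Kit*, *Procr* and *Cd27* ran the other way. In both genotypes the order of the samples by each of these 3 genes was the exact reverse of the order by *Ly6a*, which held for 3 of the other 8 markers and for 7.39% of all tested genes. In *Ythdc1*Δ/Δ samples all 3 genes were lowest in KO176, where *Ly6a* and the interferon-stimulated genes were highest. *Procr* spanned 19.0 to 51.2 CPM in *Ythdc1*Δ/Δ samples, against 38.6 to 58.2 CPM in *Ythdc1*+/+ samples. *Kit* spanned 161 to 260 CPM in *Ythdc1*Δ/Δ samples, against 239 to 265 CPM in *Ythdc1*+/+ samples, and *Cd27* spanned 222 to 283 CPM in *Ythdc1*Δ/Δ samples, against 290 to 311 CPM in *Ythdc1*+/+ samples. Whether this relation differs between genotypes was not tested. The granulocyte sum, of which *Mpo* was a large part, was also highest in KO176.

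**Figure D4:**
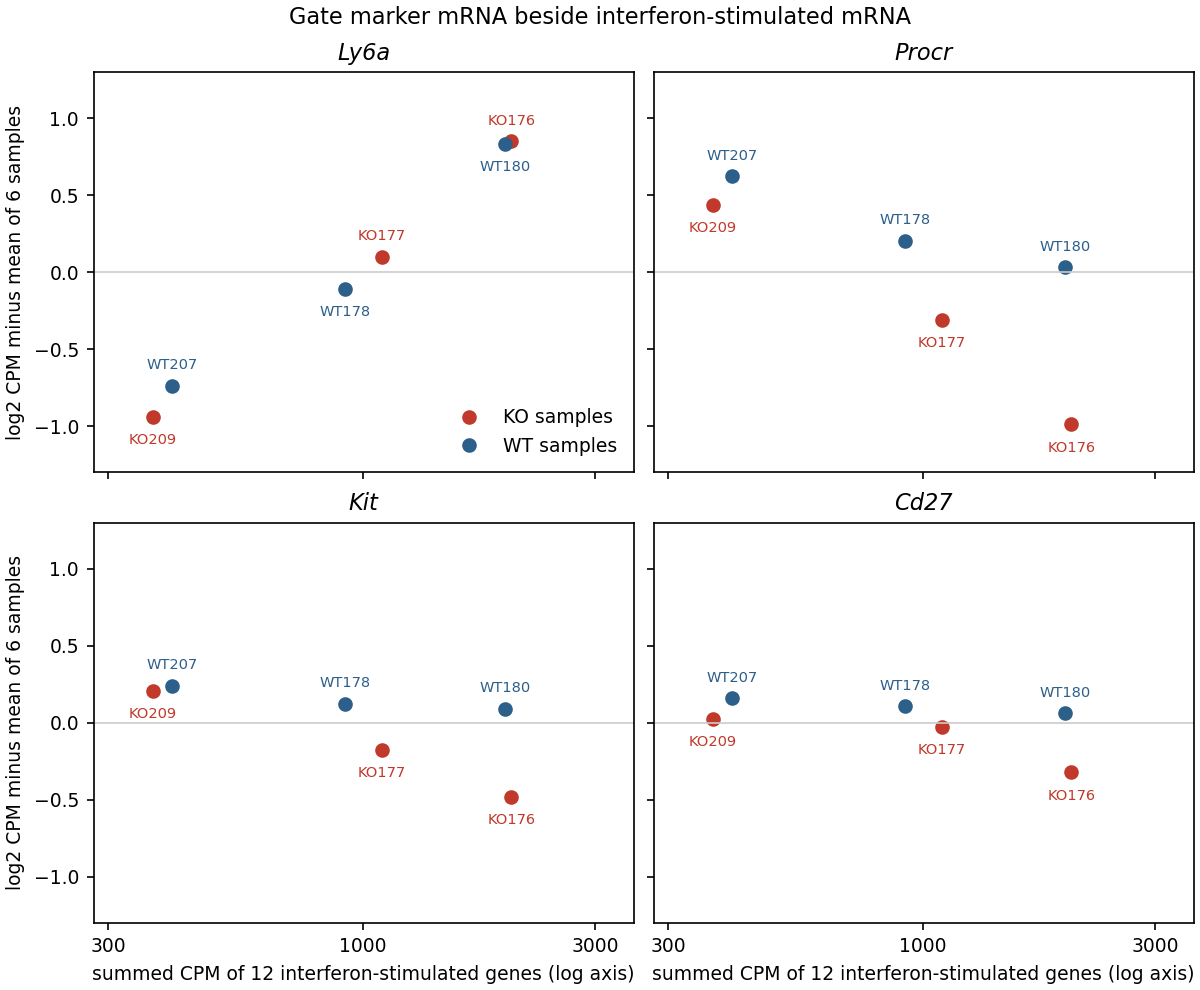
Log2 CPM of *Ly6a*, *Procr*, *Kit* and *Cd27* minus the mean of the 6 samples (vertical axes) against the summed CPM of 12 interferon-stimulated genes (horizontal log axis), 1 point per sample, *Ythdc1*Δ/Δ (KO) red and *Ythdc1*+/+ (WT) blue. *Ly6a* ascends with the sum from KO209 (371 CPM) to KO176 (2019 CPM), and the other genes descend within each genotype.

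Over the 12 libraries, which share sample numbers in pairs and are not independent, the genes with log2 CPM most like *Kit*, *Ly6a*, *Slamf1*, *Cd48* and *Flt3* were sought among 9130 genes at 10 CPM or more. For *Ly6a* they were *H2-T24*, a class I histocompatibility gene (Pearson r = 0.995), and the interferon-stimulated *Ifit3* (0.995). For *Kit* they were *Hdgfl3* (0.975) and *Arhgap6* (0.973), for *Slamf1* *Dpf2* (0.904) and *Slco4a1* (0.895), for *Cd48* *Il12a* (0.948) and *Ighv6-3* (0.918), and for *Flt3* *Ganab* (0.943) and *Gimap7* (0.937). Among the markers themselves, r was 0.93 between *Procr* and *Cd27*, 0.91 between *Procr* and *Kit*, 0.88 between *Kit* and *Cd27*, and 0.63 between *Cd48* and *Flt3*. It was -0.78 between *Ly6a* and *Procr* and -0.60 between *Slamf1* and *Flt3*. These values describe likeness within this set of libraries.

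Other surface genes of HSCs lay mostly below 0, though edgeR called none, 2 were lower with an unadjusted p under 0.05 and 1 was called lower by DESeq2. Of 16 further receptors and adhesion proteins used to mark HSCs, 14 had a log2 fold change below 0 and 2 above, with a median of -0.35, where 51.1% of tested genes were below 0. *Vwf*, von Willebrand factor of platelet-biased HSCs and megakaryocytes, was at 4.54 ± 1.08 CPM in *Ythdc1*Δ/Δ samples, against 8.38 ± 0.715 CPM in *Ythdc1*+/+ samples (log2 fold change -0.89, SE 0.20, adjusted p = 0.194 from edgeR). All 6 tested megakaryocyte genes were below 0, with a median of -0.76, 4 at an unadjusted p under 0.05 and 0 called by edgeR (1 by DESeq2, *Vwf*). Their summed level was 172 to 296 CPM in *Ythdc1*Δ/Δ samples, against 284 to 419 CPM in *Ythdc1*+/+ samples, and its part in the lower *Slamf1* and *Tek* values was not tested.

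Genes for lineage and progenitor antigens were also read on the RNA side. The list is not the study's lineage cocktail, as it has no gene for Ter119 and includes *Fcgr3* and *Il7r*, whose antibodies were outside that cocktail. Of 11 genes, 9 were tested and 9 were above 0 with a median of 0.36, where 48.9% of tested genes were above 0. At an unadjusted p under 0.05, 1 was higher, where 9.48% of tested genes had such a p, and 0 were called by edgeR (1 by DESeq2, *Fcgr3*). *Fcgr3*, the CD16 antigen of myeloid progenitors, was at 49.1 ± 17.8 CPM in *Ythdc1*Δ/Δ samples, against 27.4 ± 1.82 CPM in *Ythdc1*+/+ samples (log2 fold change 0.84, SE 0.22, adjusted p = 0.286 from edgeR). *Cd8a*, of T cells, had 11 counts in all *Ythdc1*Δ/Δ and 16 in all *Ythdc1*+/+ libraries and was not tested, and *Cd3e* had 26 and 16. Of the 6 tested T and NK cell genes 4 were above 0 with a median of 0.14. Erythroid genes gave 7 of 8 above 0 with a median of 0.32, and mast cell and basophil genes, which include the other marrow cells rich in *Kit*, gave 4 of 6 with a median of 0.45, with 0 called by edgeR in each of these 3 lists. At an unadjusted p under 0.05 there were 0, 2 and 1 genes in the T and NK, erythroid and mast cell lists, all higher, and DESeq2 called 1, the mast cell tryptase *Tpsb2*. The mast cell and basophil sum was 199 to 407 CPM in *Ythdc1*Δ/Δ samples, against 227 to 335 CPM in *Ythdc1*+/+ samples, and was lowest in KO209. *Tpsb2*, the gene of smallest p in that list, was at 2.70 ± 1.34 CPM in *Ythdc1*Δ/Δ samples, against 0.113 ± 0.146 CPM in *Ythdc1*+/+ samples, without overlap. The part of these cells in the *Kit* values was not tested.

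Endothelial and stromal genes matter for *Tek*, *Procr* and *Cd34*, which vascular cells also express. Of 9 tested, 8 were above 0 with a median of 0.93, where 48.9% of tested genes were above 0. At an unadjusted p under 0.05, 5 were higher, where 9.48% of tested genes had such a p in either direction. These 5 were stromal genes, *Lepr*, *Adipoq*, *Sparc*, *Cxcl12* and *Col1a2*. By edgeR 3 were called higher, *Lepr*, *Adipoq* and *Sparc*, where 0.137% of tested genes were called. DESeq2 called 4, these and *Cxcl12*, where it called 1.19% of tested genes. *Cxcl12*, a stromal chemokine, was at 15.5 ± 2.71 CPM in *Ythdc1*Δ/Δ samples, against 3.45 ± 2.01 CPM in *Ythdc1*+/+ samples. *Lepr*, *Adipoq* and *Sparc* together were at 8.35 to 12.7 CPM in *Ythdc1*Δ/Δ samples, against 1.81 to 3.22 CPM in *Ythdc1*+/+ samples. These 3 were summed because they were called, so the separation of their sum follows from that choice and gives only their level. The whole list summed to 135 to 139 CPM in *Ythdc1*Δ/Δ samples, against 100.4 to 112 CPM in *Ythdc1*+/+ samples. Most of that sum was *Pecam1*, which endothelium shares with blood cells, at 91.4 ± 11.3 CPM in *Ythdc1*Δ/Δ samples, against 81.1 ± 10.5 CPM in *Ythdc1*+/+ samples. *Emcn*, an endothelial sialomucin also found on HSCs, was at 16.9 ± 6.71 CPM in *Ythdc1*Δ/Δ samples, against 15.7 ± 2.46 CPM in *Ythdc1*+/+ samples. *Cdh5*, the cadherin that defines endothelium, was low, with 27 counts in all *Ythdc1*Δ/Δ and 20 in all *Ythdc1*+/+ libraries, and *Kdr*, the VEGF receptor, was at 0.952 ± 0.252 CPM in *Ythdc1*Δ/Δ samples, against 1.12 ± 0.115 CPM in *Ythdc1*+/+ samples. The log2 fold changes of *Pecam1*, *Emcn* and *Kdr* were 0.17, 0.11 and -0.22, each with overlap between the genotypes. The part of vascular cells in the *Tek*, *Procr* and *Cd34* values was not tested.

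Ligands and partners of the receptors were tested for 8 of 10 genes, of which 6 were above 0 with a median of 0.14, 2 higher at an unadjusted p under 0.05 and 0 called by edgeR or DESeq2. *Kitl*, the stem cell factor that c-Kit binds, was at 0.395 ± 0.115 CPM in *Ythdc1*Δ/Δ samples, against 0.145 ± 0.0254 CPM in *Ythdc1*+/+ samples, on 55 and 20 counts in all (log2 fold change 1.43, SE 0.42, adjusted p = 0.302 from edgeR). *Flt3l*, the FLT3 ligand, was at 7.22 ± 1.50 CPM in *Ythdc1*Δ/Δ samples, against 9.20 ± 0.608 CPM in *Ythdc1*+/+ samples (log2 fold change -0.34, SE 0.18, adjusted p = 0.591 from edgeR). Signalling adaptors of these receptors gave 9 of 15 above 0 with a median of 0.07, 1 gene each way at an unadjusted p under 0.05 and 0 called by either tool. Further genes of the SLAM family lie in the cluster of *Slamf1* and *Cd48*, except *Slamf8* and *Slamf9*, which lie apart from it on chr1. The listed genes gave 5 of 7 above 0 with a median of 0.13 and 0 called by edgeR (1 by DESeq2, *Slamf7*). At an unadjusted p under 0.05 there was 1 gene each way, *Slamf7* higher and *Slamf8* lower. *Slamf7*, a receptor of plasma and NK cells, was at 3.56 ± 0.838 CPM in *Ythdc1*Δ/Δ samples, against 1.52 ± 0.244 CPM in *Ythdc1*+/+ samples (log2 fold change 1.23, SE 0.24, adjusted p = 0.151 from edgeR), the opposite sign from *Slamf1*.

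On mm10 the other markers lie at chr5:75574916-75656722 (*Kit*), chr15:74994877-74998031 (*Ly6a*), chr5:147330741-147400489 (*Flt3*), chr1:194938819-194961279 (*Cd34*), chr2:155751117-155755471 (*Procr*), chr4:94739289-94874976 (*Tek*) and chr6:125232622-125237010 (*Cd27*), and counts cover their exons, untranslated parts included. Of the exon bases of *Cd34* 2.03% overlap *Gm16897*, and *Kit*, *Ly6a*, *Slamf1*, *Cd48*, *Flt3*, *Procr* and *Tek* overlap no other annotated exon.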

How the data were processed

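Polyadenylated RNA of sorted HSCs was copied with a SMARTer low-input kit and sequenced. The authors deposited unscaled counts, whole numbers of read pairs that featureCounts 2.0.1 assigned to exons of GENCODE vM23 genes on mm10, ignoring strand and leaving out multi-mapped and ambiguous pairs. The FPKM values the study describes were not used. PCR copies carry no molecular identifiers, so counting error understates the error.

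The 2 libraries of a sample number were summed. Within a genotype, their deviations from the genotype mean correlated at 0.06 to 0.47 over 6 pairs, against -0.54 to -0.19 over 24 other pairs. Genes were filtered (filterByExpr, minimum count 10, minimum total 15), scaled by TMM and tested with edgeR 4.0.16 (quasi-likelihood, robust, legacy option off) in R 4.3.3, with Benjamini-Hochberg adjustment over 18234 genes and a threshold of 0.05. CPM use the TMM-scaled totals, and levels per kb divide CPM by exon length. A group without overlap has all samples of 1 genotype beyond all of the other. Similar genes were ranked by Pearson r of log2 CPM (prior count 2). The steps were tested on simulated data. Figures used Python 3.11.15 and matplotlib 3.10.9.

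The members and the 15 gene lists were chosen with earlier results of these data known. Named genes are the 9 members, the 2 genes most like each gate gene (*Kit*, *Ly6a*, *Slamf1*, *Cd48*, *Flt3*), and from each list up to 3 genes of smallest p, of which some are not reported here. *Pax5*, *Kdr*, *Cdh5*, *Cd8a* and *Cd3e* are named in addition as defining markers of other cells. *Cd79b*, *Mpo*, *Cxcl12*, *Pecam1*, *Emcn* and *Angpt1* were chosen after their values were seen. Alternatives were other scaling, filters, DESeq2 1.42.0, each sample left out, single libraries, a replicate block and the range of sample numbers. The 3 against 3 design allows no exact p under 0.1 for a single gene, so none is given.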

Additional observations from a re-analysis of the deposited data

How the results depend on the processing

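Of 144 log2 fold changes of the 9 markers under 16 alternatives, 132 kept their direction and side of the threshold, 7 reversed and 5 were newly called, all 5 for *Tek*. The number of markers called was 0 as reported and 1, *Tek*, with no filter on low counts, with the 12 libraries as separate samples, with these and the digit after the number as a replicate block, and with DESeq2, and it spanned 0 to 1 with each sample left out, with 1 without KO209. The adjusted p of *Tek* spanned 0.00449 to 0.595. *Ly6a* reversed to -0.46 without KO176, -0.07 without WT178, -0.26 without WT207 (-0.46 to 0.56 with each sample left out) and -0.011 with the low or high range of numbers as a term. *Cd34* reversed to -0.0094 without KO177, -0.0138 without WT180 and -0.0087 without WT207 (-0.0138 to 0.16 with each sample left out). The cause of these reversals was not tested.

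Markers without overlap numbered 2 as reported, 1 with upper quartile scaling and 2 to 5 with a sample left out, where fewer samples must be separated (4 without KO176, 4 without KO209, 5 without WT180). Genes called numbered 25 as reported, 16 with upper quartile scaling, 15 with the legacy option, 73 with no filter, 3 with a minimum count of 50, 85 with the range term, 217 with DESeq2, 751 with the 12 libraries as separate samples, and 1 to 81 with a sample left out, the highest without KO209 and the lowest without WT178 (10 without KO177, 6 without WT180 and 2 without WT207). With the digit as a replicate block they numbered 717. The digits name the 2 libraries of a sample number, no number occurs in both genotypes, and the block does not pair samples between genotypes. The lowest counts behind a marker were 293 for *Slamf1* and 322 for *Tek*, and the standard errors were largest for *Ly6a* (0.63) and *Procr* (0.37).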
